A study of Mus musculus with 12 samples.

Results

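The Nodal and activin pathway genes described here are 10 genes of one signalling branch: the ligand genes Nodal, Gdf3, Inhba and Inhbb, the coreceptor genes Tdgf1 and Cfc1, and the genes of the secreted antagonists Lefty1, Lefty2, Cer1 and Fst. They were taken by gene name from the probe annotation of the arrays, which gave 13 of 55681 probes and 10 of 34836 gene names. The group was chosen with results of these arrays known, and Cfc1, Gdf3 and Fst were chosen on their strong change with dexamethasone (Dex), so changes with Dex are given below as values without a test. Expression was measured on 12 one-colour arrays of mouse embryonic stem (ES) cells at day 4, with 3 arrays in each of 4 groups. All cells carried Gata6GR, a fusion of the transcription factor Gata6 to the ligand-binding part of the glucocorticoid receptor, which Dex activates, and no group lacked this transgene. The groups were Sox7(+/-) cells without Dex (Sox7(+/-) ES), Sox7(+/-) cells with Dex (Sox7(+/-) XEN-like), Sox7(-/-) cells without Dex (Sox7(-/-) ES) and Sox7(-/-) cells with Dex (Sox7(-/-) XEN-like), where XEN-like refers to the resemblance to extraembryonic endoderm lines. Each genotype was 1 cell line, the Sox7(-/-) line was derived from the Sox7(+/-) line, and a wild-type Sox7 line was not among the 4 groups, so that genotype and clone cannot be told apart. The labels do not say that the arrays of a group came from separate cultures, and one label field gives all 3 Sox7(+/-) ES arrays the same replicate number, so the p-values measure the spread between these arrays, which may be technical.

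Nodal and the activins are ligands of the TGF-beta family that bind type II and type I receptors and lead to phosphorylation of Smad2 and Smad3, which act in the nucleus with Smad4 and partners such as Foxh1. Nodal needs a membrane-anchored coreceptor of the EGF-CFC family, encoded by Tdgf1 (Cripto) or Cfc1 (Cryptic), whereas the activins do not. Lefty1 and Lefty2 block Nodal and its coreceptor and are themselves induced by Nodal signalling, Cer1 binds Nodal, and follistatin, the product of Fst, binds activins. In the early mouse embryo this pathway acts in the epiblast and in the visceral endoderm, one of the derivatives of the primitive endoderm that XEN cells represent.

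Promoter letters of some members are shown first, as context for the values that follow. For the members that RefSeq promoter sequences (build GRCm38.p6) covered, which were Nodal, Inhba, Inhbb, Tdgf1, Cfc1 and Cer1, the 250 bases before the transcription start were searched on both strands for the Foxh1 site AATNCACA (N is any base), the Sox site AACAAT and the GATA site. The GATA site was taken as the core letters GATA with 1 more base on each side, which could be A or T before the core and A or G after it. A GATA form was found for 3 of these 6 members and in 26.5% of all 32851 RefSeq promoters cut to the same length. Neither the Foxh1 letters, present in 3.18% of all promoters, nor the Sox letters, present in 9.42%, were found for any of the 6. The 4 sequences shown are that of Cfc1, the one member with higher signal in XEN-like cells whose promoter was in the table, those of Inhbb and Tdgf1, which hold a GATA form although their signal was lower in XEN-like cells, and that of Nodal, which holds none. They are written 5′ to 3′ on the strand of the gene, with GATA forms in capitals.
Cfc1 (chr1:34535398-34535647, plus strand): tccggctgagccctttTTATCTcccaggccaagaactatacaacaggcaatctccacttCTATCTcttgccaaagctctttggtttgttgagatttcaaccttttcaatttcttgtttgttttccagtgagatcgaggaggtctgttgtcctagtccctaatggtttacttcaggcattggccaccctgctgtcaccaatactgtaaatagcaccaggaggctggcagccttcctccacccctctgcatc
Inhbb (chr1:119422249-119422498, minus strand): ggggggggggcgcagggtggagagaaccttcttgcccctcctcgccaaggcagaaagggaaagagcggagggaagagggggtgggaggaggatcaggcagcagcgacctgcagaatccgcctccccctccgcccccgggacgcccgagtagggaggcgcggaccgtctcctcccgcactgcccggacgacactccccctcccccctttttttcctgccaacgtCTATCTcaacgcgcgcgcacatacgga
Tdgf1 (chr9:110946159-110946408, minus strand): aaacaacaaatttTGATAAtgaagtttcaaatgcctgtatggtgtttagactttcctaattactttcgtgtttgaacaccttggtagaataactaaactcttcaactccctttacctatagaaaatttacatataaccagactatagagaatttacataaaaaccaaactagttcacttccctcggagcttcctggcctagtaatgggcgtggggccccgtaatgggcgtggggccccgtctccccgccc
Nodal (chr10:61417722-61417971, plus strand): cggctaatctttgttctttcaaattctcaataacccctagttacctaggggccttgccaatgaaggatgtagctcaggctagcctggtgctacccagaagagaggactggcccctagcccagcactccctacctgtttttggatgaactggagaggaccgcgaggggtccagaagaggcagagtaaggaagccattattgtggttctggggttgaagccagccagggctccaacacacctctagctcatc
In Cfc1 the GATA forms began 234 and 191 bases before the start, both on the opposite strand. In Inhbb the form began 27 bases before the start on the opposite strand, and in Tdgf1 it began 237 bases before the start on the strand of the gene. These matches describe the letters only, and binding was not measured here.

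Before the members, the targeted gene was read in every array. Levels are given as scaled signal, which is the processed signal of a probe divided by the 75th percentile of its array, times 100, and levels of different probes are not compared. Sox7, which encodes a transcription factor of the SoxF family, gave a scaled signal of 224, 218 and 229 in Sox7(+/-) ES cells and of 489.9, 495 and 688 in Sox7(+/-) XEN-like cells. It was between 1.48 and 2.57 on the 6 Sox7(-/-) arrays and was well above background on none of them, and relative to the Sox7(+/-) groups it was lower by at least 24.7-fold without Dex and at least 73.6-fold with Dex (limma, adjusted p = 1.28e-08 and 7.22e-09). Where a probe was not well above background on any array of a group, a fold is given as such a bound, computed with the lowest signal that was well above background on each array.

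The arrays were alike in quality, with 41.7% to 52.3% of spots well above background and no saturated spot. Log2 levels of replicate arrays correlated with r between 0.993 and 0.996 in the 3 groups other than Sox7(+/-) XEN-like, whose array 3 reached only 0.982 and 0.983 with the other two. The arrays lay on 2 slides. The first carried all Sox7(-/-) ES arrays with 1 Sox7(-/-) XEN-like array and the second the other 8, so the ES cells of the genotypes shared no slide and slide is separable from genotype there only through the Sox7(-/-) XEN-like arrays. Defining markers of the labelled cell types were summed. The summed scaled signal of 6 ES cell markers was 21316 to 22491 in Sox7(+/-) ES cells and 4898 to 5577 after Dex, and 45086 to 48409 in Sox7(-/-) ES cells and 7220.1 to 7896 after Dex. After Dex most of this sum was Klf4, whose mean was higher in XEN-like than in ES cells (4887 against 1775 in Sox7(+/-) and 6256 against 4408 in Sox7(-/-) cells), while the means of the other 5 genes were lower. Without Dex all 6 genes had the higher mean in the Sox7(-/-) line. Of the XEN-like groups, Sox7(-/-) cells were also higher without overlap for Esrrb (418 against 16.9), Zfp42 (561 against 261) and Klf4. The arrays of these groups overlapped for Pou5f1 and Nanog, and Sox2 was at background in both. Nanog, a defining gene of ES cells, was well above background on no XEN-like array, but Pou5f1 was on all 6. The sum of 8 extraembryonic endoderm markers was 39510 to 41039 in Sox7(+/-) ES cells and 29999.8 to 33038 in Sox7(-/-) ES cells, with all 8 genes well above background in these cultures without Dex, and 106464 to 124400 in XEN-like cells. Most of that sum was Lama1, whose mean was 29377 without Dex in the Sox7(+/-) line and 22045 in the Sox7(-/-) line, and the genes of the list did not move together. Gata6 (1307 and 1887) and Pdgfra (641 and 963) were higher in Sox7(-/-) ES cells. Col4a1 (4824 and 2935), Foxa2 (769 and 561), Dab2 (1231 and 825) and Lama1 were lower, and the arrays of the genotypes overlapped for Gata4 and Sox17. Whether the Gata6 probe also reads the Gata6GR transgene was not tested. In these bulk cultures, fewer cells of a type and less RNA per cell cannot be told apart.

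**Figure D1:**
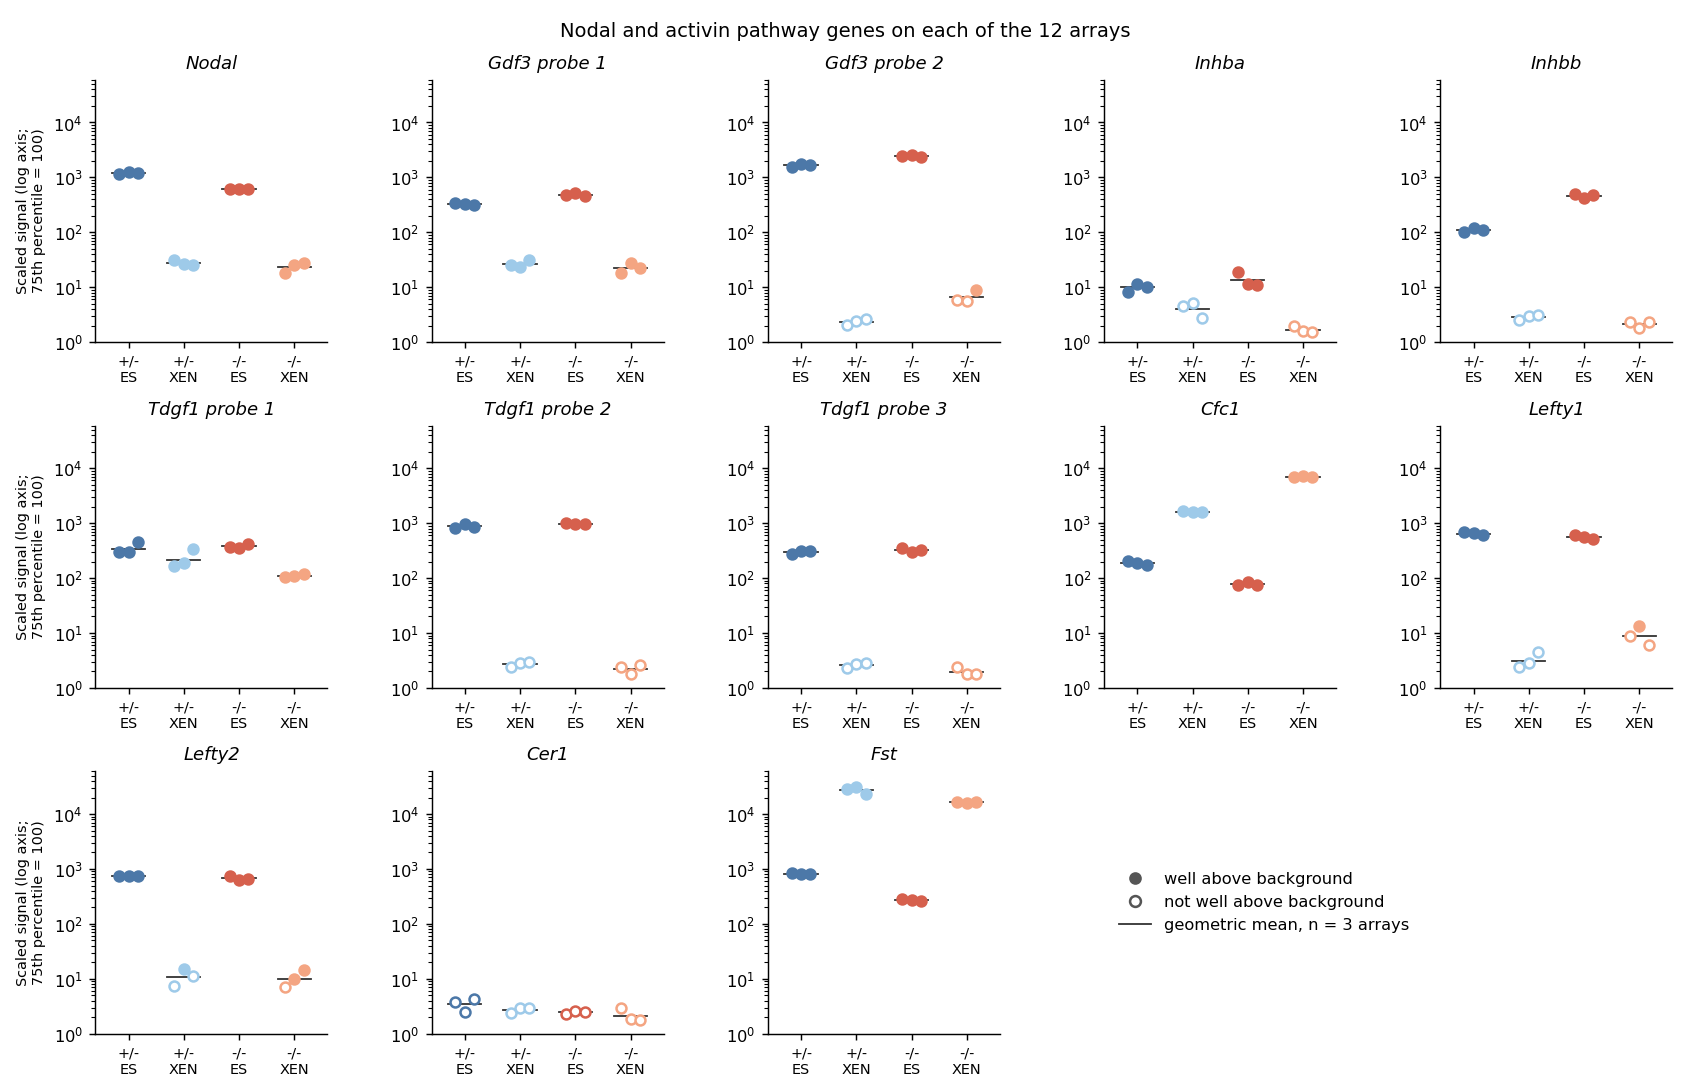
Scaled signal of the 13 probes of the 10 genes on each of the 12 arrays, on a log axis where 100 is the 75th percentile of the array; filled points are well above background, open points are not, and lines are geometric means of 3 arrays. Nodal, Gdf3, Inhbb, Lefty1 and Lefty2 lay higher in ES cells of both genotypes, Cfc1 and Fst lay higher in XEN-like cells of both, and Cer1 was near background throughout.

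The fit covered 25899 probes that were well above background throughout 1 or more of the groups, and 9 of the 10 members had such a probe. Cer1 (mm9 chr4:82527655-82527714) did not, with scaled signals between 1.80 and 4.32 and no array of the 12 well above background, and it has no further result here. Read by the probe with the highest mean log2 level of each gene, XEN-like cells had a lower level than ES cells by over 2-fold for 6 members in Sox7(+/-) cells and for 7 members in Sox7(-/-) cells, and a higher level by over 2-fold for Cfc1 and Fst in both genotypes. The counts of lower members use fitted differences and include Inhba, for which the bounds were only 1.06-fold and 1.79-fold. Among all probes tested with limma, 11.0% rose and 14.0% fell by over 2-fold at an adjusted p under 0.05 with Dex in Sox7(+/-) cells, and 14.6% rose and 14.2% fell in Sox7(-/-) cells. Because the members were chosen with their Dex response known, nothing is read from their counts against these shares.

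**Figure D2:**
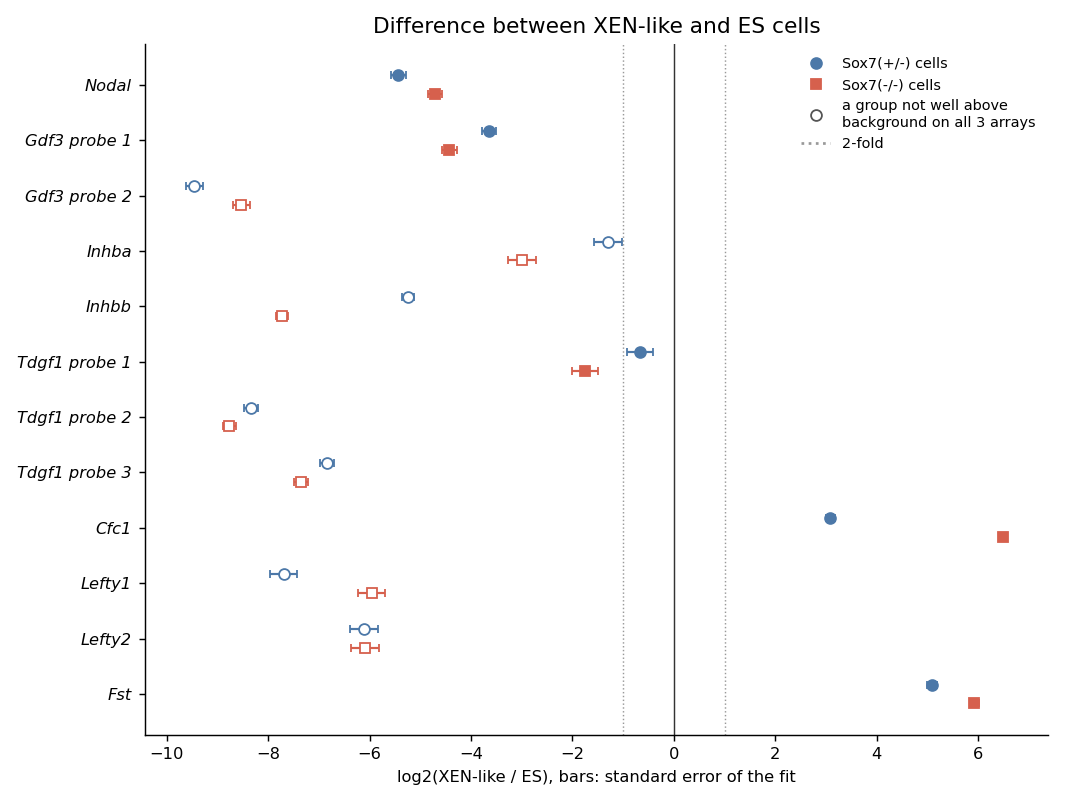
Log2 difference between XEN-like and ES cells for the 12 probes that entered the fit, in Sox7(+/-) cells (circles) and Sox7(-/-) cells (squares), with the standard error of the fit as bars and 2-fold marked by dotted lines. Open symbols have a group that was not well above background on all 3 arrays. Their fitted difference rests on signals near background, and the true difference may be larger or smaller. Cfc1 and Fst are the genes to the right of 0, and Cfc1 shows the widest gap between the genotypes in that direction.

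Among the ligand genes, Nodal was at a high level in ES cells and remained measurable in XEN-like cells. Its probe (mm9 chr10:60887790-60887849, plus strand) gave 1133, 1236 and 1209.7 in Sox7(+/-) ES cells and 31.5, 26.2 and 25.6 in Sox7(+/-) XEN-like cells. The Sox7(-/-) line gave 606, 607 and 623 without Dex and 18.4, 25.8 and 27.4 with Dex. All ES arrays thus lay above all XEN-like arrays, the Sox7(-/-) ES arrays lay below the Sox7(+/-) ES arrays, and the XEN-like arrays of the genotypes overlapped. The XEN-like level was 43.1-fold lower than the ES level in Sox7(+/-) cells and 26.1-fold lower in Sox7(-/-) cells, log2 differences of -5.43 and -4.70 (SE 0.14 each). With the single Sox7(-/-) XEN-like array that shared a slide with the Sox7(-/-) ES arrays, the second was -5.06. The probe was well above background on all 12 arrays.

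Gdf3, which encodes a Nodal-related ligand, was read by 2 probes, which differed in how low they read in XEN-like cells. The first (mm9 chr6:122555421-122555480, minus strand) gave 317 to 341 in Sox7(+/-) ES cells, 23.5 to 31.0 in Sox7(+/-) XEN-like cells, 458 to 524 in Sox7(-/-) ES cells and 18.5 to 27.2 in Sox7(-/-) XEN-like cells. The second lies upstream of it in the same transcript and is shown because it gave the larger difference.
Gdf3 second probe (mm9 chr6:122556340-122556399, minus strand): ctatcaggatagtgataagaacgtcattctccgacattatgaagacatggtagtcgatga
It gave 1547, 1755 and 1668 in Sox7(+/-) ES cells and 2481, 2552 and 2318 in Sox7(-/-) ES cells. In XEN-like cells it gave 2.04, 2.44 and 2.59 in Sox7(+/-) cells, none well above background, and 5.87, 5.51 and 8.95 in Sox7(-/-) cells, of which only the last was. The XEN-like level was 12.5-fold and 21.5-fold lower in Sox7(+/-) and Sox7(-/-) cells by the first probe, whereas by the second it was at least 176-fold lower in Sox7(+/-) cells. In Sox7(-/-) cells the fitted fold of the second probe was 370.04, which rests on 2 of 3 arrays near background and is not comparable with that bound.

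Inhbb and Inhba encode the beta subunits of activin B and activin A. The Inhbb probe (mm9 chr1:121312160-121312219, minus strand) gave 100.2, 117 and 108 in Sox7(+/-) ES cells and 493, 420.1 and 471 in Sox7(-/-) ES cells, without overlap. It was between 1.84 and 3.07 on the 6 XEN-like arrays and well above background on none, so that it was at least 11.5-fold lower than in ES cells for Sox7(+/-) and at least 61.5-fold lower for Sox7(-/-). The Inhba probe (mm9 chr13:16118634-16118693, plus strand) was dim throughout, with 8.21, 11.7 and 10.2 in Sox7(+/-) ES cells and 18.9, 11.6 and 10.9 in Sox7(-/-) ES cells, which overlapped. It was 2.70 to 5.17 in Sox7(+/-) XEN-like cells and 1.50 to 1.95 in Sox7(-/-) XEN-like cells, with no XEN-like array well above background, and the bounds on its difference from ES cells were only 1.06-fold and 1.79-fold. With normexp background correction its log2 difference from ES cells was -0.12 in Sox7(+/-) cells, against -1.30 here.

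The 2 coreceptor genes ran in opposite directions. Cfc1 (probe at mm9 chr1:34601097-34601156, plus strand) gave 209, 191 and 172 in Sox7(+/-) ES cells and 1639, 1621 and 1585 in Sox7(+/-) XEN-like cells. The Sox7(-/-) line gave 74.9, 84.8 and 74.1 without Dex and 6879.9, 7312 and 6857 with Dex, so that the Sox7(-/-) cells held both the lowest and the highest arrays and no pair of the 4 groups overlapped. Its level in XEN-like cells was 8.49-fold that in ES cells for Sox7(+/-) and 90.1-fold for Sox7(-/-), a log2 difference between the responses of 3.41 (SE 0.12), given without a test because Cfc1 was chosen on its response. That difference was 3.38 with slide as a block and 3.39 without Sox7(+/-) XEN-like array 3.

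Tdgf1 was read by 3 probes, which did not read alike in XEN-like cells. The probes at mm9 chr9:110843099-110843158 and chr9:110842866-110842925 (minus strand) gave 823 to 991 and 279 to 349.5 on the 6 ES arrays, and 1.77 to 2.95 in XEN-like cells with no array well above background. By these probes Tdgf1 was at least 93.5-fold and at least 32.0-fold lower in Sox7(+/-) XEN-like than ES cells, and at least 131-fold and at least 43.3-fold lower in the Sox7(-/-) pair. The remaining probe (mm9 chr9:110842722-110842781), nearest the end of the transcript, gave 305, 294 and 459.8 in Sox7(+/-) ES cells but still 163, 187 and 338 in Sox7(+/-) XEN-like cells, and 346 to 423 and 105 to 121 in the Sox7(-/-) groups. Its differences were 1.59-fold and 3.39-fold, and since it had the highest mean log2 level over the 12 arrays, although not the highest signal in ES cells, it is the probe by which Tdgf1 is counted here. Which transcripts this probe detects was not tested.

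Both Lefty genes were read at high levels in ES cells and near background in XEN-like cells. Lefty1 (mm9 chr1:182868137-182868196, plus strand) gave 678, 649 and 616 in Sox7(+/-) ES cells and 597, 566 and 517 in Sox7(-/-) ES cells. In XEN-like cells it gave 2.38, 2.88 and 4.44 for Sox7(+/-), none well above background, and 8.96, 13.2 and 6.12 for Sox7(-/-), of which the second array alone was. The level in XEN-like cells was at least 68.9-fold lower than in ES cells for Sox7(+/-). For Sox7(-/-) the fitted fold was 62.2, with 1 of 3 XEN-like arrays well above background, and it is not comparable with that bound. Lefty2 (mm9 chr1:182828893-182828952, plus strand) gave 740.4 to 743 and 638 to 760.4 in ES cells of the genotypes, and 7.37 to 15.2 and 6.96 to 14.4 in XEN-like cells, where 1 and 2 of 3 arrays were well above background. Its fitted folds were 69.1 and 68.5, and they rest in part on those arrays near background.

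Fst was the other member with a higher level in XEN-like cells. Its probe (mm9 chr13:115243565-115243624, minus strand) gave 842, 808 and 798 in Sox7(+/-) ES cells and 29082, 31475 and 23618 in Sox7(+/-) XEN-like cells, and 279, 273 and 260.1 in Sox7(-/-) ES cells and 16673, 16166 and 16680.2 in Sox7(-/-) XEN-like cells. No pair of groups overlapped, and the Sox7(-/-) groups lay below the Sox7(+/-) groups with and without Dex. The level in XEN-like cells was 34.1-fold that in ES cells for Sox7(+/-) and 61.0-fold for Sox7(-/-), a log2 difference between the responses of 0.84 (SE 0.14). All 12 arrays were well above background.

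The comparison of genotypes asked whether the pathway genes differed between the Sox7(-/-) and the Sox7(+/-) line in the day 4 cultures without and with Dex. It was tested with limma over all probes, with a gene called at an adjusted p under 0.05 and a difference over 2-fold. It uses the same arrays as the Dex changes on which the members were chosen. The contrast differs but shares group means with those changes, so the choice, above all of Cfc1, Gdf3 and Fst, can affect it. The p-values do not take this into account, and nothing is read from the counts of called members against the shares of all probes. In ES cells, Inhbb was 4.25-fold higher in Sox7(-/-) than in Sox7(+/-) cells (log2 difference 2.09, SE 0.12, adjusted p = 1.15e-06 by limma), Fst was 3.01-fold lower (-1.59, SE 0.10, adjusted p = 1.40e-06) and Cfc1 was 2.44-fold lower (-1.29, SE 0.08, adjusted p = 2.40e-06). All 3 arrays of one genotype lay beyond all 3 of the other for each of them, and each group was well above background. These were the only members called, 1 higher and 2 lower of 9, where 1.95% of all probes tested rose and 6.66% fell. With slide as a block the log2 differences were 1.91, -1.61 and -1.25, and each stayed called.

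The other members differed less in ES cells. Nodal was 1.95-fold lower in Sox7(-/-) ES cells (log2 difference -0.96, SE 0.14, adjusted p = 0.00045 by limma), just under the 2-fold limit, and it passed that limit with quantile normalization (-1.11) and spike-in scaling (-1.12). With slide as a block the difference of Nodal was -0.43 with an adjusted p of 0.12. The slide term comes from the Sox7(-/-) XEN-like arrays alone, where Nodal gave 18.4 on slide 1 and 25.8 and 27.4 on slide 2. The block therefore cannot show whether slide contributes to the ES difference of Nodal or of any other member. Gdf3 was 1.46-fold and 1.48-fold higher in Sox7(-/-) ES cells by its probes (adjusted p = 0.011 and 0.020). Lefty1, Lefty2, Tdgf1 and Inhba did not pass the adjusted p threshold, with log2 differences of -0.21, -0.12, 0.13 and 0.43. The groups did not overlap for 6 of 9 members, against 65.3% of all probes tested. The median log2 difference was -0.12 over the members and 0.10 over all probes. Beside these differences stand those of the marker sums given above, with the ES cell sum higher and the extraembryonic endoderm sum, most of it Lama1, lower in the Sox7(-/-) ES cultures. The sum of 5 trophectoderm markers, most of it Krt8, was 10255 to 10483 in Sox7(+/-) and 2299 to 2507 in Sox7(-/-) ES cells. Their part in the members' differences was not tested.

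**Figure D3:**
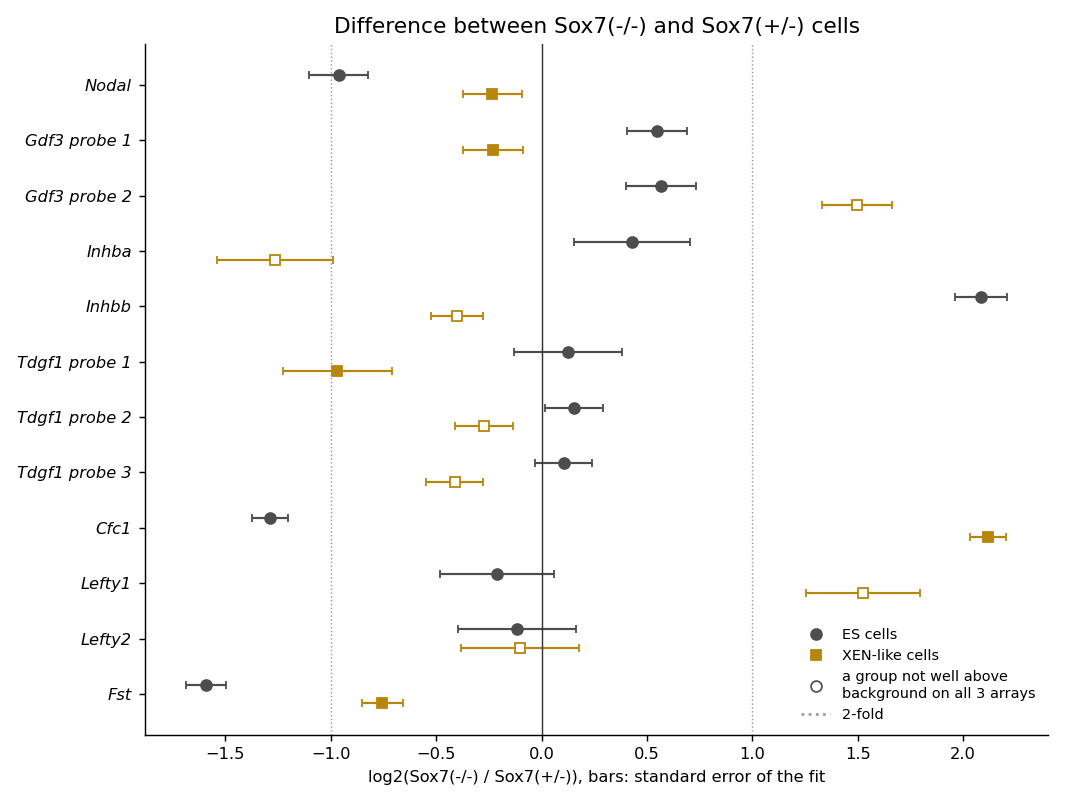
Log2 difference between Sox7(-/-) and Sox7(+/-) cells for the 12 probes that entered the fit, in ES cells (circles) and XEN-like cells (squares), with the standard error of the fit as bars and 2-fold marked by dotted lines; open symbols have a group not well above background on all 3 arrays. Cfc1 lies at -1.29 in ES cells and at 2.12 in XEN-like cells, and Inhbb lies at 2.09 in ES cells.

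In XEN-like cells, Cfc1 was the one member that was called and well above background in both genotypes. It was 4.34-fold higher in Sox7(-/-) cells (log2 difference 2.12, SE 0.08, adjusted p = 1.76e-07 by limma), the opposite direction to that in ES cells. Within slide 2, where 2 Sox7(-/-) arrays met 3 Sox7(+/-) arrays, the difference was 2.13, and without Sox7(+/-) XEN-like array 3 it was 2.11. Fst was 1.69-fold lower in Sox7(-/-) XEN-like cells (-0.76, SE 0.10, adjusted p = 0.00031), which did not reach 2-fold. Its difference was -0.76 within slide 2 and -0.87 without that array. In the deposited table, which is not scaled between arrays, it was -0.33 (adjusted p = 0.13).

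Of the 9 members tested, 2 were called higher in Sox7(-/-) XEN-like cells, Cfc1 and Lefty1, and 1 lower, Inhba, where 3.86% of all probes tested rose and 3.64% fell. The Lefty1 and Inhba calls rest on arrays near background. Lefty1 had a fitted log2 difference of 1.52 (adjusted p = 0.0023) with 1 of the 6 arrays well above background, and Inhba one of -1.27 (adjusted p = 0.0063) with none, so that no fold is given for either. With normexp background correction the Lefty1 difference was 0.07 (adjusted p = 0.58) and the Inhba difference -0.38 (adjusted p = 0.040), and neither was called. By its second probe Gdf3 had a fitted difference of 1.50 (adjusted p = 0.00013) with 1 of 6 arrays well above background, while its first probe, well above background throughout, gave -0.23 (adjusted p = 0.24). Tdgf1 had -0.97 by the probe used for counting (adjusted p = 0.016), and Nodal and Lefty2 had -0.23 and -0.10 (adjusted p = 0.22 and 0.80). Inhbb, at background in both genotypes, had -0.40 (adjusted p = 0.031). The groups did not overlap for 6 of 9 members, against 46.3% of all probes, and the median difference was -0.23 against 0.00083 over all probes.

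Whether the genotypes differed in their Dex response was tested for the 6 members besides Cer1 that were not chosen for a strong change with Dex. The Dex responses of these 6 were still known when the group was chosen, which the p-values do not take into account. Of these, Lefty1 was called higher and Inhba, Inhbb and Tdgf1 were called lower, where 6.63% of all probes tested rose and 3.17% fell. The Inhbb difference was -2.49 (SE 0.17, adjusted p = 6.21e-06 by limma) and was -2.37 with slide as a block. It came with a 4.25-fold higher level in Sox7(-/-) ES cells and with XEN-like cells at background in both genotypes, so that its size in XEN-like cells is limited by background. The differences of Lefty1 (1.74, SE 0.38, adjusted p = 0.0085) and Inhba (-1.70, SE 0.39, adjusted p = 0.0098) have the same XEN-like arrays near background as above. With normexp they were 0.31 (adjusted p = 0.13) and -0.61 (adjusted p = 0.032), and with slide as a block Inhba had -1.47 (adjusted p = 0.071), so that neither call held under all settings. The Tdgf1 difference was -1.09 (SE 0.36, adjusted p = 0.048) by one probe and -0.43 and -0.52 by the others (adjusted p = 0.13 and 0.071), and the call was lost when any of 9 of the 12 arrays was left out, with -0.78 without Sox7(+/-) XEN-like array 3. Nodal differed by 0.73 (SE 0.20, adjusted p = 0.022), below the 2-fold limit. It passed that limit and was called with quantile normalization, spike-in scaling and the deposited table. With slide as a block it differed by 0.37 (adjusted p = 0.13). Lefty2 differed by 0.01 (SE 0.40, adjusted p = 0.99). For Gdf3, described without a test, the probes gave -0.78 and 0.93, in opposite directions.

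The other genes of the pathway were taken from a list of 35 in 6 roles, of which 30 entered the fit. The list was chosen with earlier results of these arrays known, which the calls and p-values below do not take into account. For this reason nothing is read from its counts against the shares of all probes, with Dex or between genotypes. With Dex, 6 of 30 were called higher and 9 lower in Sox7(+/-) cells, and 4 higher and 8 lower in Sox7(-/-) cells. Over all probes tested, 11.0% were higher and 14.0% lower in the first comparison and 14.6% and 14.2% in the second. The median log2 difference of the 30 was -0.08 and 0.04, against 0.16 and 0.07 over all probes tested. The receptors showed no call in any comparison, and for Acvr1b, Acvr2a and Acvr2b, 3 of the 4 listed, the median difference with Dex was -0.17 and -0.39. Among Smads and nuclear partners, Smad2 rose 2.72-fold in Sox7(+/-) and 3.55-fold in Sox7(-/-) cells, and Smad3 rose 2.10-fold and 2.37-fold. In Sox7(+/-) cells both lay under the 2-fold limit with spike-in scaling (log2 differences of 0.95 and 0.58) and in the deposited table (0.98 and 0.63), and Smad3 also with normexp (0.99), with quantile normalization (0.92) and without Sox7(+/-) XEN-like array 1 (0.999). Foxh1, the DNA-binding partner through which Nodal induces genes such as Lefty2, fell in both genotypes, with log2 differences of -4.27 and -4.31 (adjusted p = 6.03e-07 and 4.32e-07 by limma). In Sox7(+/-) XEN-like cells 1 of its 3 arrays exceeded background clearly. Tgif1, which encodes a corepressor of Smads, fell by 2.22 and 2.93 on the log2 scale.

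Among inhibitors, Smad7 and Dact2 were called lower with Dex in both genotypes. Dact2 gave 26.0 to 32.8 in Sox7(+/-) ES cells and 7.16 to 28.4 in Sox7(+/-) XEN-like cells, so that these groups overlapped. Only 1 of those 3 XEN-like arrays was well above background. In the Sox7(-/-) groups Dact2 gave 39.1 to 63.2 without Dex and 17.3 to 33.3 with Dex. Smad7, an inhibitory Smad that TGF-beta family signals induce, fell with Dex by 2.62 in Sox7(+/-) and by 2.13 in Sox7(-/-) cells on the log2 scale. Among XEN-like cells it was higher in the Sox7(-/-) line (1.21, SE 0.11, adjusted p = 2.83e-05), at 123 to 134 against 48.2 to 61.2, and at 0.93 with normexp it was below the 2-fold limit. Among processing enzymes, Pcsk6, a convertase that cleaves the Nodal precursor, was 1.16 higher (SE 0.07, adjusted p = 2.16e-06) in Sox7(-/-) XEN-like cells. Pcsk5 was at least 3.88-fold higher with Dex in Sox7(+/-) cells. Its lower level in Sox7(-/-) XEN-like cells, -1.74 (SE 0.48, adjusted p = 0.019), lost its call with slide as a block (-1.48, adjusted p = 0.069), without Sox7(+/-) XEN-like array 1 (-1.61) and without Sox7(-/-) XEN-like array 1 or 2 (-1.48 and -1.62).

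Inha, which encodes the inhibin subunit that pairs with activin subunits, rose in both genotypes, 6.15-fold in Sox7(+/-) cells, where 1 of 3 ES arrays was well above background, and at least 5.10-fold in Sox7(-/-) cells. Tgfbr3, the inhibin and TGF-beta coreceptor betaglycan, rose 5.17-fold in Sox7(+/-) and 18.9-fold in Sox7(-/-) cells and was lower in Sox7(-/-) ES cells (-1.55, SE 0.24, adjusted p = 0.00056), a call lost with slide as a block (-1.57, adjusted p = 0.052). Inhbe, a further inhibin beta subunit gene, was higher in Sox7(-/-) ES cells (1.42, SE 0.23, adjusted p = 0.00074), which was below the 2-fold limit with normexp (0.88), and fell 4.52-fold with Dex in those cells.

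Of the target genes in the early embryo, 4 of 4 tested were called lower with Dex in Sox7(+/-) cells and 2 of 4 in Sox7(-/-) cells. Gsc fell at least 1.57-fold and at least 2.06-fold. T, a gene of the primitive streak, was at 60.3 to 77.0 in Sox7(+/-) ES cells and not well above background on any array of the other 3 groups, so that it was at least 6.97-fold lower with Dex in Sox7(+/-) cells and at least 7.24-fold lower in Sox7(-/-) than Sox7(+/-) ES cells. Its call with Dex in Sox7(-/-) cells lies wholly at background. Eomes, a T-box gene of streak and visceral endoderm, was at 45.6 to 51.4 in Sox7(+/-) and 159 to 201 in Sox7(-/-) XEN-like cells (1.89, SE 0.09, adjusted p = 5.60e-07). Between genotypes, 1 pathway gene was called higher and 2 lower in ES cells, and 3 higher and 1 lower in XEN-like cells, of 30 each time, where 1.95% and 6.66% of all probes were called higher and lower in ES cells and 3.86% and 3.64% in XEN-like cells. The genes so called were Inhbe, Tgfbr3 and T in ES cells and Smad7, Pcsk6, Eomes and Pcsk5 in XEN-like cells. The summed markers of anterior visceral endoderm, a tissue that makes Lefty1 and Cer1 in the embryo, were 2250.5 to 2338 in Sox7(+/-) and 7290.0 to 8008 in Sox7(-/-) XEN-like cells, and those of visceral endoderm were 2460.0 to 3512 and 13761 to 15444. In the anterior visceral endoderm list 3 to 5 of 6 genes were well above background on the Sox7(-/-) arrays and 3 of 6 on the others, and in the visceral endoderm list 4 of 6 were in both. Most of the anterior visceral endoderm sum in Sox7(-/-) XEN-like cells was Sfrp5 and Dkk1, with means of 4882 and 2158. Otx2, Lhx1 and Gsc of that list were near background there, with means of 5.56, 9.09 and 2.54. Most of the visceral endoderm sum was Cubn and Amn. In ES cells that sum was 6899 to 7167 in Sox7(+/-) and 3686 to 4331 in Sox7(-/-) cells. The sum of 5 parietal endoderm markers, most of it Sparc, went the other way. It was 112292 to 142345 in Sox7(+/-) and 99696 to 106942 in Sox7(-/-) XEN-like cells, and each gene had the lower mean in Sox7(-/-) cells. The anterior visceral and visceral endoderm sums were higher in the genotype in which Cfc1, Eomes and Smad7 were higher. The part of these markers in those differences was not tested.

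**Figure D4:**
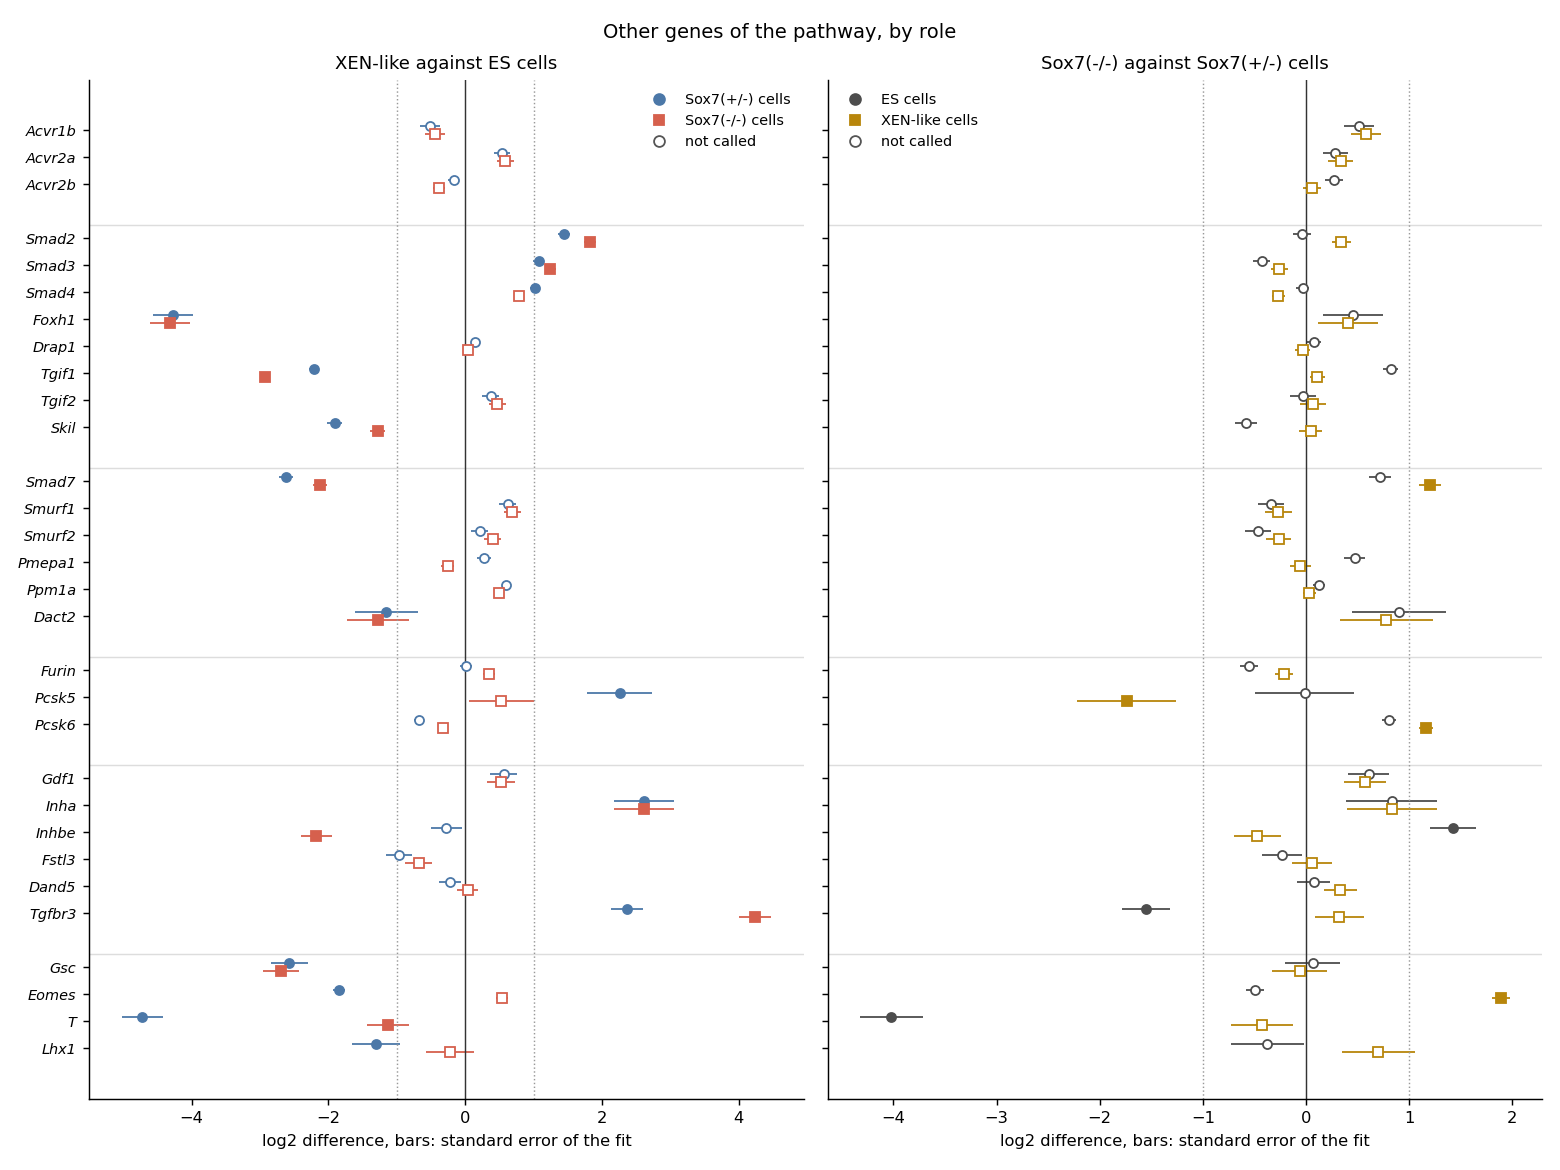
Log2 differences of the 30 other pathway genes that entered the fit, grouped by role from receptors at the top through Smads and partners, inhibitors, processing enzymes and other ligands and binding proteins to target genes at the bottom; left, XEN-like against ES cells, and right, Sox7(-/-) against Sox7(+/-) cells, with the standard error of the fit as bars. Filled symbols are called; Foxh1, Tgif1 and Smad7 lie left of 0 in both genotypes on the left, and Eomes at 1.89 lies farthest to the right on the right.

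The genes with the pattern most like each member were found as the smallest Euclidean distance between the 4 group means, each gene centred on its own mean, over 18918 gene symbols, a description over 4 group means of 12 arrays. The closest neighbours of Gdf3, read only by the first of its probes, were Etv4, an ETS transcription factor gene, and Arc, at distances of 0.07 and 0.17 on the log2 scale. Those of Lefty2 were Ltb and Dpys (0.23 and 0.29), those of Lefty1 were Slco4a1 and Tcea3 (0.30 and 0.48), and those of Inhbb were Stmn3 and Eras (0.34 and 0.62). Inhba lay near Tspo and Trib3 (0.25 each), and Fst near Oaf and Kcng1 (0.40 and 0.46). Nodal lay nearest Gm9564 (0.33), and Tdgf1, by the probe used for counting, lay near Fermt2 (0.07). For Nodal and Tdgf1 the other of the 2 nearest names was an array name for an intergenic transcript without a gene symbol. Cfc1 had no such close neighbour, with Ihh, the hedgehog ligand of visceral endoderm, at 0.95 and Npas3 at 0.96.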

How the data were processed

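Total RNA of each sample was hybridised to a one-colour Agilent SurePrint G3 Mouse 8x60K array, and each array's scanner output was deposited by the authors. Per the file headers, the deposited intensity values (processed signal) are spot signals with the background subtracted, extracted with Agilent Feature Extraction 10.7.3.1, with no normalization between arrays. A deposited table of all arrays holds linear intensity values that match the mean spot signals before background subtraction. The match was within 0.50% on every array, so the table holds no scaling between arrays. It served as an alternative, on the log2 scale with no further scaling, and its differences include those in brightness between arrays. Probe positions on mm9 come from the scanner output.

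The log2 processed signal minus its 75th percentile on the array was analysed in R 4.3.3 with limma 3.58.1. Control spots and spots marked as outliers were left out, spots of a probe were averaged, and 25899 of 55681 probes, well above background throughout 1 or more groups, entered 1 fit over all 12 arrays with 5 comparisons. Calls needed a difference over 2-fold and a p-value under 0.05 after Benjamini-Hochberg adjustment. Every adjusted p in the text is from limma over those probes. A gene with several probes was read by the one with the highest mean log2 level over the 12 arrays. The gene lists and the members were chosen with earlier results of these data known. Named among the other pathway genes were at most 5 with the largest change in each direction among those called; Dact2 and the receptors were named after their values were seen. One further gene drawn up for the pathway list is not reported here. Of the 35 others, 5 did not enter the fit. Groups came from the labels. Arrays sharing a replicate number did not deviate together, with correlations between -0.05 and 0.13, so the main fit has no replicate term. Alternatives were normexp background correction (offset 50), quantile normalization, scaling on 7 spike-in probes, the deposited table, all probes without the filter on dim ones, slide or replicate number as a block, no minimum fold, and leaving out each array in turn. With 3 arrays a group, the number of arrays limits the precision.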

Additional observations from a re-analysis of the deposited data

Results flagged for a closer look

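For 4 members and 4 other pathway genes the interaction term of the limma fit, the Sox7(-/-) response to Dex minus the Sox7(+/-) response on the log2 scale, passed the adjusted p threshold with a difference over 2-fold. For the members the values were -2.49 for Inhbb (adjusted p = 6.21e-06), -1.70 for Inhba (adjusted p = 0.0098), -1.09 for Tdgf1 (adjusted p = 0.048) and 1.74 for Lefty1 (adjusted p = 0.0085). Their Dex responses were known when the members were chosen, which these p-values do not take into account. The Inhbb value restates the 4.25-fold difference between the ES cells, since Inhbb was at background in XEN-like cells of both genotypes. Inhba and Lefty1 were near background in XEN-like cells and both calls were lost with normexp and with the deposited table. The Inhba call was also lost with quantile normalization, spike-in scaling and slide as a block. Tdgf1 was called by 1 of its 3 probes, and that call was lost when any of 9 of the 12 arrays was left out, and with normexp, quantile normalization, spike-in scaling, slide as a block, dim probes kept in the fit and the deposited table.

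For the other pathway genes the values were 2.38 for Eomes (adjusted p = 9.86e-07), 1.87 for Tgfbr3 (adjusted p = 0.0026), -1.90 for Inhbe (adjusted p = 0.0019) and 3.59 for T. Their list was also chosen with earlier results known, which these p-values do not take into account. The Inhbe value was -0.93 in the deposited table, below the 2-fold limit. Eomes fell with Dex in Sox7(+/-) cells (-1.85) and had a difference of 0.54 in Sox7(-/-) cells. T was well above background in Sox7(+/-) ES cells alone, so its value restates the level of that group over 3 groups at background and is no measured difference between 2 responses.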

How the results depend on the processing

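The Dex differences of the members kept their direction under all alternatives run, as did the calls of Inhbb, Cfc1 and Fst in ES cells and of Cfc1 in XEN-like cells. Members with a fitted Dex difference over 2-fold in either direction numbered 8 in Sox7(+/-) and 9 in Sox7(-/-) cells. They numbered 7 and 8 with normexp, 9 and 9 with spike-in scaling, and 8 and 8 with the deposited table. With normexp, 9 rather than 15 pathway genes were called with Dex in Sox7(+/-) cells and 2 rather than 4 between XEN-like genotypes, and 1 rather than 3 members were called between XEN-like genotypes and 1 rather than 4 for the interaction. With the deposited table these were 8 pathway genes with Dex in Sox7(+/-) cells, 1 member between XEN-like genotypes and 2 members for the interaction, and slide as a block also gave 2 members for the interaction. With no minimum fold, 24 and 26 pathway genes passed with Dex in Sox7(+/-) and Sox7(-/-) cells (main 15 and 12), 15 between ES genotypes, 8 between XEN-like genotypes and 10 for the interaction (main 3, 4 and 4), and 5 and 6 members passed between ES and XEN-like genotypes (main 3 and 3).

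Uncalled differences that changed sign were those of Lefty2 for the interaction (normexp -0.15, slide block -0.51), in XEN-like cells (quantile 0.048, spike-in 0.14, 0.16 in the deposited table, slide block 0.16) and in ES cells (slide block 0.67), of Tdgf1 in ES cells (spike-in -0.029), and in XEN-like cells of Nodal (spike-in 0.011, 0.11 in the deposited table) and Gdf3 (spike-in 0.016, 0.13 in the deposited table); the cause was not tested. Leaving out 1 array at a time, Lefty2 ranged from -0.38 to 0.16 in XEN-like cells and from -0.26 to 0.27 for the interaction, and member counts were 3 between ES genotypes, 3 to 4 between XEN-like genotypes and 3 to 4 for the interaction.

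With the replicate block, 3 members were called between ES genotypes and 3 between XEN-like genotypes, and 503 probes were higher and 1740 lower between ES genotypes, against 504 and 1726 without it. The median of all probes moved with spike-in scaling and with the deposited table, which is not scaled between arrays. With Dex in Sox7(+/-) cells it moved from 0.16 to -0.34 (spike-in) and -0.23 (deposited table). Between XEN-like genotypes it moved from 0.00083 to 0.25 and 0.34. The split of higher against lower calls with Dex in Sox7(+/-) cells was 2845 to 3613, 1248 to 5493 with spike-in scaling and 848 to 3478 in the deposited table. Between XEN-like genotypes it was 999 to 942, 1619 to 495, and 1164 to 131, and for the interaction 1716 to 820, 3018 to 345, and 1898 to 221. With normexp, whose offset raises dim signals, Dex differences near background were smaller, such as -2.14 for Inhbb and -4.46 for Lefty1 in Sox7(+/-) cells. Calls of pathway genes were lost in 20 cases under these settings and in 4 when 1 array was left out, 3 of them those of Pcsk5 and 1 that of Smad3 with Dex in Sox7(+/-) cells, whose log2 difference of 1.07 was just under the 2-fold limit (0.999) without Sox7(+/-) XEN-like array 1. Signals near background limit Inhba, Lefty1 and Lefty2 in XEN-like cells.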
